A study of Mus musculus with 12 samples.

Results

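PIR+ progenitors of the mouse fetal liver were compared between knockout (KO) and wild type across the 4395 autosomal genes with a normalized value of 10 or more in at least 3 of 12 libraries, of 23420 genes in the deposited table. The cells carried the paired immunoglobulin-like receptors (PIR) and were sorted as lineage-negative c-Kit+ cells, 100 per tube. Each group had 3 libraries: PIR+ wild type, PIR+ KO, and the PIR- wild-type and PIR- KO groups that served for comparison. The labels name neither the gene knocked out, the strain nor any treatment, so the targeted gene could not be checked. Nothing in them states that the 3 libraries within a group are from separate animals. The p-values therefore rest on the spread between libraries. In the test used, the spread of each gene is drawn toward that of other genes at a similar level over all 12 libraries. The source name gives embryonic stage E12.5 or E14.5, and the series title E12.5 alone. By the source name 2 PIR+ wild-type libraries were E12.5 (replicates 1 and 2) and 1 was E14.5. Of PIR+ KO, 1 library was E12.5 (replicate 3) and 2 were E14.5. By this label, stage was split unequally between the genotypes. In 3 of the 6 PIR+ libraries (and 6 of the 12 in all) the markers field has the other PIR sign than the title, and groups follow the titles. The stage goes with the markers field in each library, E12.5 where it says PIR+ and E14.5 where it says PIR-. A doubt about that field thus extends to the stage label, which could not be checked. Where markers field and title agree, the PIR+ libraries are thus 2 of wild type and 1 of KO.

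Lymphoid progenitors of the fetal liver include cells that travel to the embryonic thymus, where Notch signals direct them to the T lineage. Chemokine receptors such as Ccr9 and ligands of selectins guide that movement. Runx transcription factors bind DNA with a shared partner, Cbfb, and act throughout blood cell formation, from stem cells to T cells and innate lymphoid cells.

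A gene was called when limma's moderated test on log2(value + 1) gave an adjusted p under 0.05 (Benjamini-Hochberg over all genes tested). In PIR+ cells 38 of the 4395 genes were called (0.865%). Of these, 17 were higher in KO (0.387%) and 21 were lower (0.478%). The genes lower in KO included Cbfb, the homing genes Ccr9 and Selplg, the lymphoid genes Cd7 and Id2, and Crip1, Gsn and Lgals1. Those higher in KO included Gimap4, the purine enzyme Pnp, Ctla2a and the stem and progenitor genes Cd48 and Egfl7. The share of calls that were higher was 44.7%, and after median-of-ratios scaling 14 genes were higher and 29 lower (32.6% higher), with 11 and 18 called on both scales. The 9 genes that lost the call on that scale included Cd48, Eltd1, Id2, Mt1, Sdc1, Tifa, Tspan14 and Vpreb3 (adjusted p 0.0543 to 0.206). The median gene differed by 0.09 on the log2 scale as deposited and by -0.00 after that scaling. Without the 5 libraries rich in globin RNA (Hba-a1 over 200, 2 of them PIR+) 24 genes were called, 13 higher and 11 lower. All 5 globin-rich libraries are among the 6 whose markers field has the other PIR sign than the title. The 2 that are PIR+ are labelled E14.5. In PIR+ cells the alternatives by globin, markers field and stage therefore overlap and are not separate checks. With no filter on low values 50 of 13610 genes were called (0.367%), 17 higher and 33 lower.
With the stage of the source name as a term, a fit added after the data were seen, 34 genes were called, 33 of the 38 among them. The 5 lost were Id2, Impdh1, Selplg, Tfrc and Vcl (adjusted p 0.0625 to 0.165). Within the libraries labelled E12.5 (2 wild type, 1 KO) 13 genes were called, 10 of the 38 among them. Within those labelled E14.5 (1 wild type, 2 KO) 8 were called, all of them among the 38: Cbfb, Ccnd2, Crip1, Gimap4, Ifitm1, Pnp, Sdc1 and Trp53i11. The lone library of a genotype is assumed there to vary like the other groups. All 38 kept their direction under both stage labels. For the 36 whose KO and wild-type values did not overlap, this was fixed in advance and adds no evidence.

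**Figure D1:**
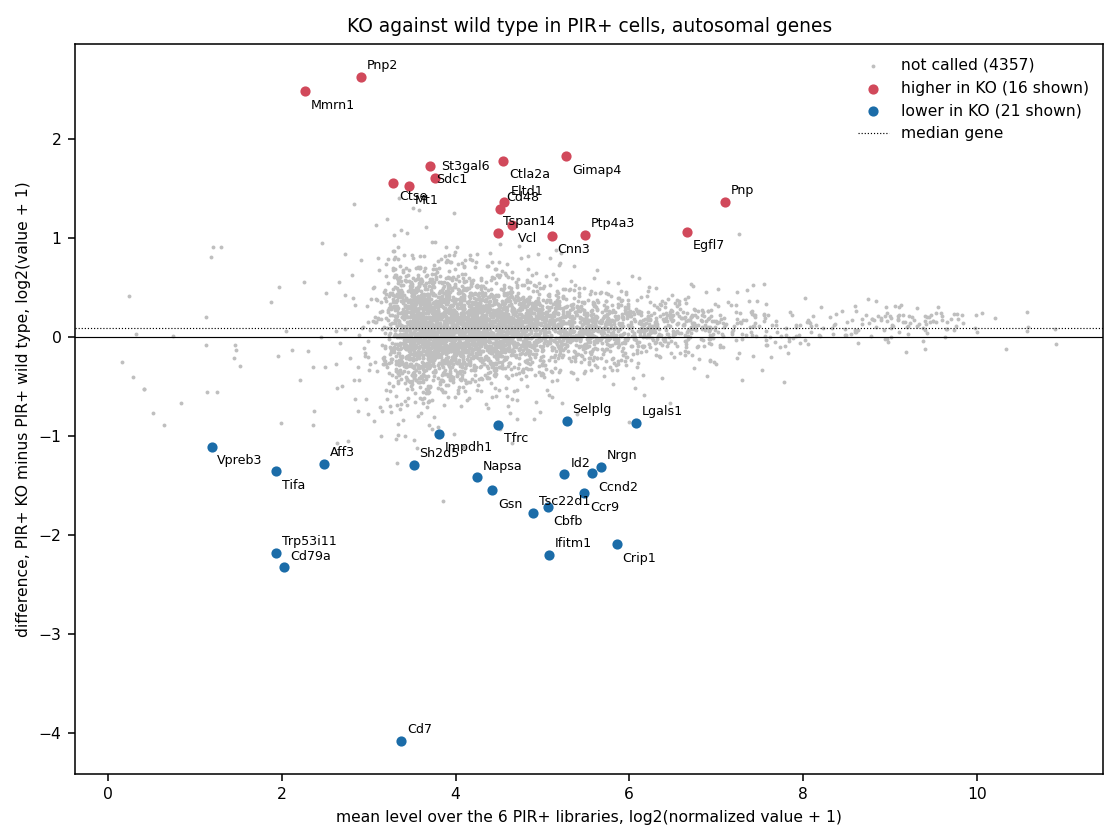
Each point is an autosomal gene, with 37 of the 38 called genes shown; the x axis is its mean level over the 6 PIR+ libraries and the y axis the KO minus wild-type difference, both on the log2(value + 1) scale. The 21 called lower (blue) reach -4.08 for Cd7 and those called higher (red) reach 2.63 for Pnp2; the dotted line is the median gene at 0.09.

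In 481 of the 4395 genes (10.9%) the 3 KO and 3 wild-type values did not overlap, 346 with KO higher and 135 with KO lower. Of the 38 called genes 36 did not overlap, the exceptions being Vpreb3 and Mt1. At an unadjusted p under 0.05 limma gave 296 genes (6.73%), 207 higher (4.71%) and 89 lower (2.03%). By the authors' deposited p-values 208 of the 4383 genes with a p had one under 0.05 (4.75%), 36 of the called 38 among them. The table does not say whether those p-values are adjusted. Among genes that limma did not call, the authors' deposited table gave its smallest p (1.66e-06) to Igfbp4, a binding protein of insulin-like growth factors named here after its values were seen. It measured 100.9, 108.5 and 111.9 in wild type and 69.1, 57.8 and 76.0 in KO, which do not overlap (log2 difference -0.66 ± 0.21 SE, adjusted p = 0.155).

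Promoter sequences are shown for 3 genes in each direction, because Runx factors recognise the letters TGTGGT and the members that moved include their partner Cbfb. They come from RefSeq (GRCm38.p6) and run from 250 bases before to 50 after the gene's start, 5′ to 3′ on the gene's strand. Capitals mark TGTGGT or its reverse complement ACCACA. The genes are Ifitm1 (chr7:140967826-140968125, plus strand), Crip1 (chr12:113151762-113152061, plus strand), Tsc22d1 (chr14:76414711-76415010, plus strand), Gimap4 (chr6:48684328-48684627, plus strand), Ctla2a (chr13:60936576-60936875, minus strand) and Pnp (chr14:50944053-50944352, plus strand). The first 3 were lower in KO and the others higher. In each direction they had the largest differences among called genes whose genotypes did not overlap, whose larger group mean reached 20 and which had a RefSeq entry; larger differences of genes at lower levels, such as Cd79a and Mmrn1, fall outside that choice.
Ifitm1: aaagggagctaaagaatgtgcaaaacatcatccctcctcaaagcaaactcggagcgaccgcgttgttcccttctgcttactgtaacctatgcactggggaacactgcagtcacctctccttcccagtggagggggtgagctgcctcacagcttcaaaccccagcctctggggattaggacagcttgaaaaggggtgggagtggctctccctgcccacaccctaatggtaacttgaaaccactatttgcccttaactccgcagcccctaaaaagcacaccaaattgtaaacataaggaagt
Crip1: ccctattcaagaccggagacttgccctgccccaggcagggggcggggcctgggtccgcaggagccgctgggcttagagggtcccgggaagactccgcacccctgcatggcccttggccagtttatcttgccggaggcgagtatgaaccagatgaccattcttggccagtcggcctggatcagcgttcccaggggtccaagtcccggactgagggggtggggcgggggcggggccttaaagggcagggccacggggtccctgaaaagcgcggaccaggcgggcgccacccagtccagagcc
Tsc22d1: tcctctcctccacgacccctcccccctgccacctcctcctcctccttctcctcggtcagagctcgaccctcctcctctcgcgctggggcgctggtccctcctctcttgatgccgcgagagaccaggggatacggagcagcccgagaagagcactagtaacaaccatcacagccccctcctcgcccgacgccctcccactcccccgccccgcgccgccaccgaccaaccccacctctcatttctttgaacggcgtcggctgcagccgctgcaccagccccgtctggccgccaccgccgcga
Gimap4: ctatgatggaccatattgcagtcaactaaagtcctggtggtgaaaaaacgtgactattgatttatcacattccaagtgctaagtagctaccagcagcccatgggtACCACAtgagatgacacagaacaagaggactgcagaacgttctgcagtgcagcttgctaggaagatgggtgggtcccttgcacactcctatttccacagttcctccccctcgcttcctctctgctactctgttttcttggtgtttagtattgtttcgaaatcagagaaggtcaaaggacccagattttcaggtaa
Ctla2a: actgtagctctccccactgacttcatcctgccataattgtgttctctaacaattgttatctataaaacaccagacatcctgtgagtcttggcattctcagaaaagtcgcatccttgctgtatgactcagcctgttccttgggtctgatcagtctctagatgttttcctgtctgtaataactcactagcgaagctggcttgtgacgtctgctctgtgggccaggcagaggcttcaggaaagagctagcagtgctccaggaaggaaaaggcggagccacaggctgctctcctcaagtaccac
Pnp: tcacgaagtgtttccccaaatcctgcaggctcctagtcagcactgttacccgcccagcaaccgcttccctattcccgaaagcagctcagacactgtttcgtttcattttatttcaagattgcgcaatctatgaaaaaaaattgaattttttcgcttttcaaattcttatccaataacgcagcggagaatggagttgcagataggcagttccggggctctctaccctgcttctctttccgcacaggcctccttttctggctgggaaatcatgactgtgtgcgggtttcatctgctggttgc

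Of the 6 promoters shown, the Gimap4 promoter alone held the motif, as ACCACA starting at position -145 from the start. Tsc22d1 had 5 promoter entries, of which 1, not the one shown, held the motif. RefSeq had 24 promoter entries, some genes having several starts, for 15 of the 21 genes lower in KO, and 4 of these 24 held the motif on either strand. It had 18 entries for 13 of the 17 genes higher in KO, and 3 of these 18 held it (16.7% of entries in each direction). The share was 11.7% over promoters of all autosomal genes tested and 16.8% over the whole RefSeq promoter table. These are counts of letters in a fixed window and locate no binding site.

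The 6 PIR+ libraries summed to between 203135 and 284648 normalized molecules, with 10847 to 11200 genes above 0. The KO sums were 1.08 times the wild-type sums (exact two-sided permutation p = 0.6, where 3 against 3 cannot go below 0.1). Across genes, r was 0.944 to 0.949 within wild type, 0.951 to 0.958 within KO and 0.929 to 0.943 between them. Globin RNA was high in wild-type replicate 3 and KO replicate 1, where Hba-a1 was 359.6 and 377.7 and the median over all 6 was 12.45. Xist was 12.7 to 18.4 in wild type and 31.3 to 34.2 in KO, and the Y-linked Ddx3y was 5.4 to 7.9 and 0.8 to 2.0. These sex-linked levels thus move with genotype in PIR+ cells. In PIR- cells both overlapped between genotypes (Xist 2.7 to 18.6 in wild type and 6.9 to 14.7 in KO, Ddx3y 4.2 to 7.8 and 7.3 to 9.2). Their part in the autosomal differences, and in the differences between subsets given below, was not tested. In bulk RNA, fewer cells of a type and less RNA per cell cannot be told apart.

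None of the 4 sort genes examined was called with all libraries and a pseudocount of 1. Kit, the receptor of stem cell factor, was 41.9, 34.2 and 52.9 in wild type and 44.2, 37.7 and 56.3 in KO (log2 difference 0.10 ± 0.23, adjusted p = 0.989). Il7r, the receptor of interleukin 7, was 16.9 ± 3.03 (SD, n = 3) in wild type, where its highest value was 20.3, and 9.7, 11.8 and 16.0 in KO (log2 difference -0.42, adjusted p = 0.898). These ranges overlap. Pira2, an activating PIR, was 28.2, 35.7 and 33.1 in wild type and 24.1, 14.3 and 9.3 in KO, which do not overlap, without a call (log2 difference -1.07 ± 0.45, adjusted p = 0.515; authors' deposited table, p 0.00144). It was called lower in KO by limma in 2 of its 24 alternatives, a pseudocount of 5 and the PIR+ libraries alone (adjusted p 0.00322 to 1.0 over its alternatives). Lilrb3, the inhibitory receptor PIR-B, was 9.5 to 14.3 in wild type and 6.2 to 12.2 in KO (adjusted p = 0.979). With groups taken from the titles, both receptor genes are listed at 0 in all PIR- libraries. They are above 0 in all 6 PIR+ libraries, including the 3 whose markers field has the other sign. Because the Pira genes are near-identical copies, the split of reads among them is uncertain.

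Cbfb was lower in KO in both subsets. In PIR+ cells it was 55.8, 44.1 and 50.8 in wild type and 12.1, 15.7 and 16.0 in KO (50.2 ± 5.87 and 14.6 ± 2.17, SD, n = 3). Every KO value lay below every wild-type value (log2 difference -1.72 ± 0.25, adjusted p = 6.65e-07), and the call held under all 24 alternatives. The gene lies at chr8:105170674-105217989 (mm10). Of its partners, Runx1, which is needed for the first blood stem cells, was 36.8, 36.8 and 48.8 in wild type and 42.4, 52.9 and 63.1 in KO (log2 difference 0.36, adjusted p = 0.872). Runx2 (7.2 to 16.3 and 5.5 to 19.8) and Runx3 (9.7 to 17.5 in KO, a range that held all 3 wild-type values), the latter a T and innate lymphoid factor, overlapped between genotypes, with adjusted p = 0.992 each. Of 7 tested members of the list of Runx factors and Cbfb, Cbfb was the called member.

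Genes of thymus homing fell at Ccr9 and Selplg. Ccr9, the receptor of the thymic chemokine Ccl25 (chr9:123678439-123784330), was 74.9, 53.9 and 68.5 in wild type and 15.8, 25.5 and 23.6 in KO. The groups are separated by a gap (65.8 ± 10.8 and 21.6 ± 5.14, SD, n = 3; log2 difference -1.57 ± 0.34, adjusted p = 0.00226). Selplg, the P-selectin ligand PSGL-1 (chr5:113818536-113832644), was 40.6, 52.0 and 53.6 against 24.2, 23 and 33.5 (log2 difference -0.84 ± 0.22, adjusted p = 0.0404). Of 11 tested genes of the homing and adhesion list these 2 were called, and the list's median was 0.03 beside 0.09 for all genes. Ccr7, another chemokine receptor of thymus seeding, was 12.1, 18.4 and 14.9 and then 6.7, 4.9 and 7.6, without a call (log2 difference -1.12, adjusted p = 0.559). The integrin Itga4 was 63.5 to 73.7 and 50.3 to 76.8 (adjusted p = 0.936).
The Ccr9 call was lost without wild-type replicate 1 (adjusted p = 0.0523; 1.04e-09 to 0.134 over its alternatives), and the Selplg call without wild-type replicate 2 or 3 or KO replicate 1 or 2 (0.19 to 0.259; 0.000644 to 0.57 over its alternatives).

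Lymphoid genes fell at Cd7 and Id2. Cd7, a surface protein of early T and NK cells (chr11:121036747-121039418), was 21.6, 19.1 and 14.9 in wild type and 0.0, 0.5 and 0.0 in KO. It was thus present in every wild-type library and at or near 0 in every KO library (log2 difference -4.08 ± 0.64, adjusted p = 2.61e-06). Its level was also 0.0 to 0.8 in all 6 PIR- libraries. With a pseudocount of 0.1 the adjusted p was 0.344, the highest of its alternatives (lowest 7.71e-18). Id2, an inhibitor of E proteins needed by innate lymphoid cells (chr12:25093799-25097140), was 38.1, 73.0 and 51.5 against 17.0, 15.2 and 28.1. The ranges do not overlap and the call was close to the threshold (log2 difference -1.39 ± 0.38, adjusted p = 0.0482). It was lost without any one of the 6 PIR+ libraries (0.0516 to 0.615; 6.28e-07 to 0.861 over its alternatives).

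Cd7 was the called member of 19 tested lymphoid progenitor genes, whose median was 0.13. Rag2, of the V(D)J recombinase, was 10.5 to 12.1 and 13.7 to 22.1 without overlap (adjusted p = 0.628). Mef2c, a transcription factor of lymphoid progenitors, was 77.6 to 96.9 and 101.9 to 141.2 (adjusted p = 0.314). Ets1, a transcription factor of lymphocytes, was 11.4 to 15.6 and 4.9 to 11.4 (adjusted p = 0.161). These 3 did not pass the test. None of 5 tested Notch and T-lineage genes was called. Notch1 itself was 49.3 to 71.2 and 48.0 to 76.8 (adjusted p = 0.999), and the 5 had an unadjusted p above 0.05. Of the list of innate lymphoid and NK cell genes 3 of 19 were tested, Id2 being called; Tyrobp, a signalling adaptor, was 81.2 to 121.0 and 73.9 to 130.0 (adjusted p = 0.982).

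**Figure D2:**
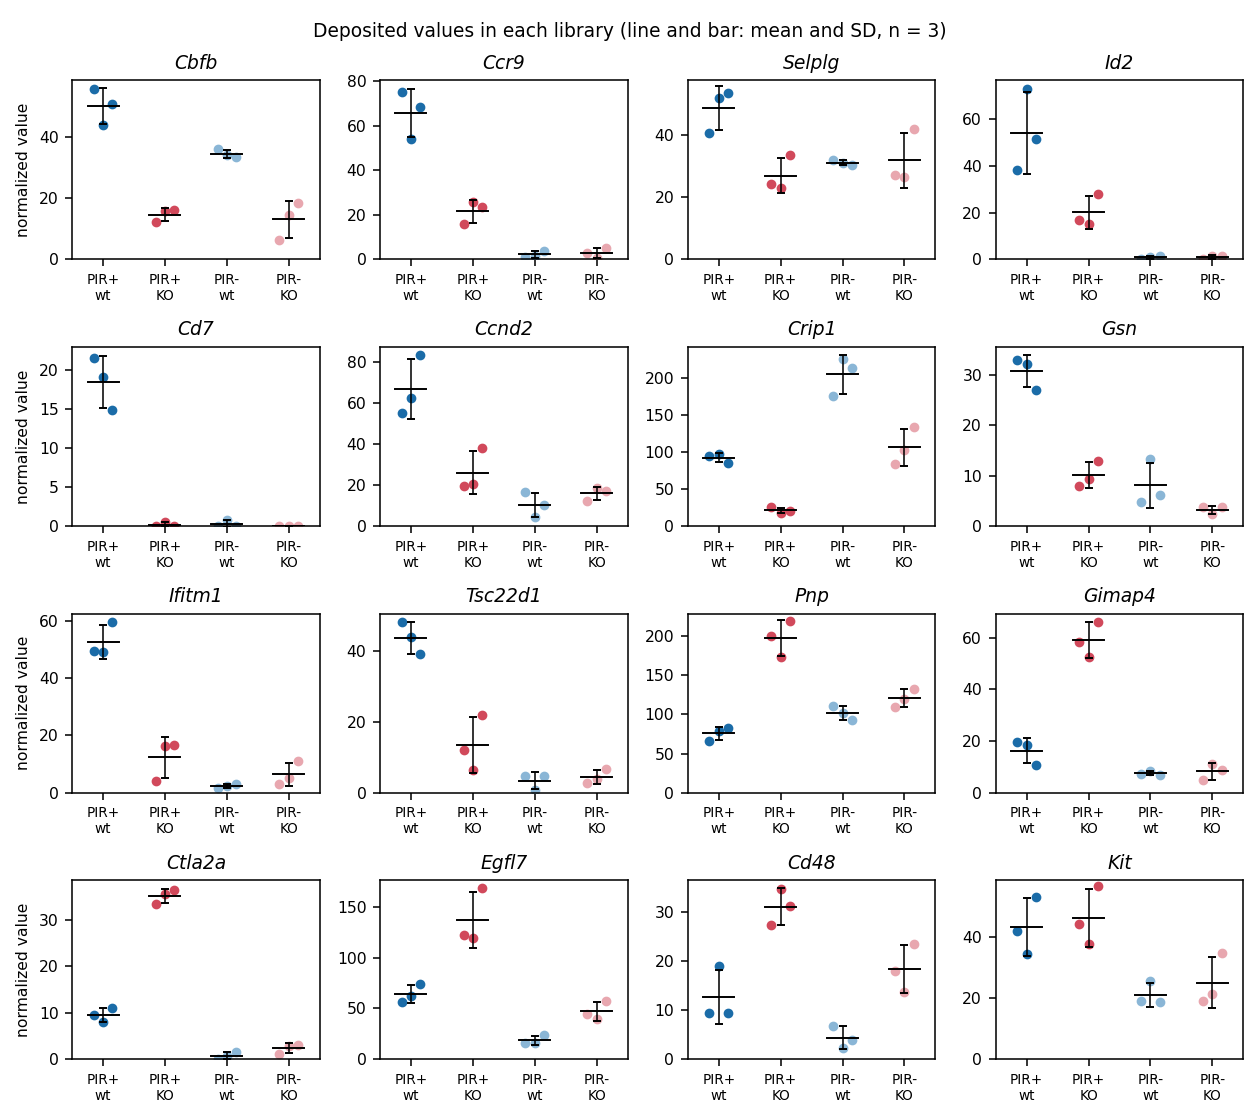
Deposited normalized values (y axis, from 0) of 15 called genes and of Kit in each library of the 4 groups; lines and bars are mean and SD of 3 libraries. Cbfb is lower in KO in both subsets, Cd7, Ccr9 and Id2 are near 0 in all PIR- libraries, and Kit overlaps between genotypes.

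Of 28 tested members of a list of actin and calcium-binding cytoskeleton genes, 3 were called, all lower in KO, and the list's median was -0.03. Vcl and Cnn3, which also act on actin but are not in the list, were called higher in KO (log2 differences 1.14 and 1.02). Crip1, a small LIM-domain protein (chr12:113146316-113153879), was 94.6, 98.0 and 85.4 in wild type and 25.4, 18.1 and 19.8 in KO (92.7 ± 6.52 and 21.1 ± 3.82, SD, n = 3). It had the smallest adjusted p of the 38 (5.47e-15; log2 difference -2.09 ± 0.19), and the call held under all 24 alternatives. Gsn, which severs actin filaments, was 33.0, 32.2 and 27.1 against 7.9, 9.3 and 12.9 (log2 difference -1.55 ± 0.32, adjusted p = 0.00164). Lgals1, the secreted lectin galectin-1, which is not an actin protein, was 75.5, 102.6 and 80.7 against 41.2, 43.1 and 56.3 (log2 difference -0.87 ± 0.20, adjusted p = 0.0079). None of the 3 overlapped between genotypes. The Gsn call was lost in 1 of 24 alternatives, the libraries where the markers field and the title give the same PIR sign. That fit held 2 PIR+ wild-type libraries and 1 PIR+ KO library (log2 difference -1.27). The Lgals1 call was lost without wild-type replicate 2 or KO replicate 1 or 2 (0.0575 to 0.223; 6.39e-05 to 0.238 over its alternatives).

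Ifitm1, an interferon-inducible membrane protein (chr7:140967221-140969825), was 49.5, 49.3 and 59.7 in wild type and 4.2, 16.2 and 16.7 in KO. KO replicate 1 was the lowest, and all 3 KO values lay below wild type (log2 difference -2.2 ± 0.34, adjusted p = 2.28e-06), with the call kept under all 24 alternatives. It was the called member of 10 tested interferon-inducible genes, 5 of which were on either side of 0 (median -0.11). Its neighbours Ifitm2 (17.8, 25.6 and 29.1 against 11.5, 14.9 and 17.5; adjusted p = 0.398) and Ifitm3 (14.0, 32.9 and 43.4 against 17.0, 14.9 and 17.5; adjusted p = 0.697) did not pass the test. Reads of such similar genes may be split uncertainly.

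Other genes lower in KO had varied roles. Tsc22d1, a leucine-zipper regulator induced by TGF-beta, was 48.2, 44.1 and 39.3 in wild type and 12.1, 6.4 and 22.1 in KO (log2 difference -1.77 ± 0.35, adjusted p = 0.000548). Ccnd2, cyclin D2 of the G1 phase, was 55.2, 62.5 and 83.4 against 19.4, 20.6 and 38.0 (log2 difference -1.38 ± 0.27, adjusted p = 0.000482). Both were low in each KO library without overlap, and Ccnd2 was the called member of 12 tested genes of D cyclins and cell cycle entry (median 0.20). Nrgn, neurogranin, which binds calmodulin, was 62.2, 76.3 and 76.6 against 26.4, 29.4 and 28.9 (log2 difference -1.31, adjusted p = 0.00446). Napsa, the aspartic protease napsin A, was 24.7, 27.0 and 27.1 against 7.3, 6.9 and 15.2 (log2 difference -1.42, adjusted p = 0.0029). Tfrc, the transferrin receptor, was 31.1, 23 and 29.8 against 12.7, 11.8 and 20.5 (log2 difference -0.88, adjusted p = 0.0467). In these too no KO value reached a wild-type value. Sh2d5, with an SH2 domain, was 14.0, 16.4 and 14.9 against 7.3, 3.4 and 6.8 (log2 difference -1.29, adjusted p = 0.0454).
The Ccnd2 call held without each library and was lost under 4 other alternatives. Of these, no filter on low values, a constant prior and no globin-rich libraries gave an adjusted p of 0.0614 to 0.091. The last kept the libraries where markers field and title give the same PIR sign. That fit held 2 PIR+ wild-type libraries and 1 PIR+ KO library and gave the smallest log2 difference, -0.62. Single libraries decided several of the other calls. Without KO replicate 2 the adjusted p of Tsc22d1 and of Napsa was 0.0602 each (8.96e-10 to 0.212 and 8.46e-05 to 0.364 over their alternatives). Nrgn lost its call without wild-type replicate 2 (0.0668) or 3 (0.0626; 4.25e-07 to 0.105 over its alternatives). Tfrc lost it without any PIR+ library other than KO replicate 3 and without PIR- KO replicate 2 (0.0501 to 0.323; 0.00469 to 0.573 over its alternatives). Sh2d5 lost it without any PIR+ library other than KO replicate 1 and without PIR- KO replicate 1 (0.052 to 0.403; 0.00819 to 0.403 over its alternatives).

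A group of 6 called genes, put together after their values were seen, was lower in PIR+ cells of both genotypes than in PIR- cells. Cd79a, the signalling chain of the B-cell receptor (chr7:24897381-24902197), was 8.9, 5.9 and 2.7 in PIR+ wild type and 0.0, 1.0 and 0.0 in PIR+ KO, beside 148.8 to 266.7 in the 6 PIR- libraries. Vpreb3, of the pre-B-cell receptor pathway, was 4.4, 0.7 and 1.4 against 1.2, 0.0 and 0.0, beside 95.1 to 155.7 in PIR-. Trp53i11, a gene induced by p53, was 5.7, 3.3 and 6.8 against 0.6, 0.5 and 0.0, beside 48.7 to 79.4 in PIR-. Cd79a and Trp53i11 were lower in every KO library (log2 differences -2.33 ± 0.27 and -2.18 ± 0.30, adjusted p = 1.61e-10 and 5.59e-08, kept under all 24 alternatives), while Vpreb3 overlapped (-1.11, adjusted p = 0.0467). Tifa, an adaptor of NF-kappaB signalling, was 5.1, 5.3 and 2.7 against 2.4, 1.5 and 0.0 (log2 difference -1.35, adjusted p = 0.0287). Aff3, a nuclear protein of lymphoid cells, was 8.9, 5.9 and 6.1 against 1.8, 2.0 and 3.0 (log2 difference -1.28, adjusted p = 0.0324). Impdh1, of guanine nucleotide synthesis, was 17.1, 15.1 and 20.3 against 7.3, 6.9 and 11.4 (log2 difference -0.98, adjusted p = 0.0244). All of these but Impdh1 stayed below 10 in every PIR+ library, so they passed the filter only through PIR- libraries. With the PIR+ libraries alone in the fit, under that same filter, the adjusted p of Cd79a was 0.00132. There Vpreb3, Tifa, Aff3 and Impdh1 lost the call.
Of 15 tested B-lineage genes 2 were called lower, 13 lay below 0 and the median was -0.42, beside 0.09 for all genes. The 20 genes of that list summed to 79.6 to 105.3 in PIR+ wild type, 69.5 to 93.0 in PIR+ KO and 1080.4 to 1599.3 in PIR-. The PIR+ sums overlap between genotypes, and the part of admixed B-lineage cells in these differences was not tested. Vpreb3 lost its call without wild-type replicate 1, KO replicate 2 or 3, or any PIR- library other than wild-type replicates 2 and 3 (0.0567 to 0.911; 0.0014 to 0.911 over its alternatives). Tifa lost it without wild-type replicate 1 or 2 or KO replicate 3 (0.197 to 0.569; 0.000105 to 0.569 over its alternatives). Aff3 (0.0574 to 0.296; 0.0164 to 0.296 over its alternatives) and Impdh1 (0.0755 to 0.172; 0.00275 to 0.57 over its alternatives) lost it without wild-type replicate 1 or 3 or KO replicate 1 or 2.

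Gimap4, a GTPase of the immunity-associated protein family (Gimap) that acts in lymphocyte survival, was higher in KO, and the differences of all 5 Gimap genes tested lay above 0. Gimap4 (chr6:48684549-48692060) was 19.7, 18.4 and 10.8 in wild type and 58.2, 52.4 and 66.2 in KO. Its lowest KO value was well above its highest wild-type value (16.3 ± 4.81 and 58.9 ± 6.93, SD, n = 3; log2 difference 1.83 ± 0.28, adjusted p = 1.32e-06), and the call held under all 24 alternatives. It was the called member of 5 tested, whose median was 0.63. Gimap8 was 8.9, 7.9 and 8.1 against 23.6, 19.6 and 20.5 (log2 difference 1.25, adjusted p = 0.165). Gimap1 was 19.7, 23 and 23.7 against 34.5, 33.8 and 35.7 (log2 difference 0.63, adjusted p = 0.502). Gimap6 was 22.2, 25.6 and 27.1 against 36.4, 41.6 and 38.8 (log2 difference 0.62, adjusted p = 0.638). None of these 3 overlapped between genotypes, as for Gimap9, and 4 of the 5 had an unadjusted p under 0.05 (4.71% of all genes did in that direction). The 8 Gimap genes of the list summed to 89.6 to 93.9 in wild type and 173.0 to 194.7 in KO.

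Genes of stem cells and multipotent progenitors were higher in KO at 2 of 9 tested members, and all 9 lay above 0. Their median was 0.40, or 0.30 after median-of-ratios scaling, beside 0.09 and -0.002 for all genes. Cd48, a SLAM-family surface receptor that separates progenitors from stem cells, was 9.5, 19.1 and 9.5 in wild type and 27.3, 34.8 and 31.2 in KO (log2 difference 1.29 ± 0.30, adjusted p = 0.00602). Egfl7, a secreted protein whose gene hosts the stem cell microRNA miR-126 (chr2:26580014-26593120), was 56.5, 62.5 and 73.9 against 122.4, 119.0 and 168.1 (log2 difference 1.06 ± 0.21, adjusted p = 0.000482). Both were separated without overlap. Hlf, a stem cell transcription factor, was 9.5, 4.6 and 4.1 against 21.2, 14.2 and 15.2 without a call (log2 difference 1.40, adjusted p = 0.349). Cd34, a sialomucin of progenitors, was 130.1, 162.4 and 166.1 against 159.3, 177.3 and 209.9, which overlap (adjusted p = 0.932). The list's 26 genes summed to 345.8 to 436.0 in wild type and 514.4 to 642.7 in KO.
Eltd1, Vcl and Mmrn1 were also higher in KO. Eltd1, an adhesion receptor of endothelium, was 10.8, 10.5 and 15.6 against 27.9, 39.2 and 31.9 (log2 difference 1.36, adjusted p = 0.0332). Vcl, vinculin, which links integrins to actin, was 14.7 ± 3.46 (SD, n = 3; highest 18.3) against 33.3, 27.9 and 38.8 (log2 difference 1.14, adjusted p = 0.0454). Mmrn1, the platelet and endothelial protein multimerin, was 0.0, 0.0 and 1.4 against 3.6, 6.4 and 11.4 (log2 difference 2.49 ± 0.44, adjusted p = 6.65e-05). All 3 were higher in each KO library. The 20 endothelial and stromal markers had no tested member and summed to 13.8 to 25.8 in wild type and 14.8 to 29.6 in KO, and the 14 megakaryocyte markers, with 0 of 3 tested called by limma and 1 at an unadjusted p under 0.05, to 79.2 to 88.1 and 97.5 to 118.7; the part of such cells was not tested. The Egfl7 call was lost with a constant prior (0.0607; 1.11e-05 to 0.0607 over its alternatives). The Cd48 call was lost without wild-type replicate 1 or 3 or KO replicate 2 (0.0744 to 0.108; 0.000167 to 0.146 over its alternatives). The Eltd1 call was lost without any PIR+ library other than wild-type replicate 3 (0.0731 to 0.255; 4.07e-05 to 0.619 over its alternatives), and the Vcl call without any of the 6 (0.0525 to 0.386; 0.00126 to 0.386 over its alternatives).

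Purine salvage genes rose at Pnp and Pnp2, purine nucleoside phosphorylases. Pnp (chr14:50931082-50965237) was 66.3, 78.3 and 83.0 in wild type and 199.6, 173.3 and 219.8 in KO (75.9 ± 8.61 and 197.6 ± 23.3, SD, n = 3). The KO values were 2.60 times the wild-type values on average (log2 difference 1.37 ± 0.18, adjusted p = 2.56e-08), and the call held under all 24 alternatives. Pnp2 (chr14:50955992-50964749) was 1.0, 1.3 and 1.0 against 13, 10.8 and 12.2 (log2 difference 2.63 ± 0.48, adjusted p = 0.000153). The Pnp2 call was lost where the markers field and the title give the same PIR sign. That fit held 2 PIR+ wild-type libraries and 1 PIR+ KO library (log2 difference 2.62). Pnp and Pnp2, near-identical neighbours, share an overlapping annotated gene, so how reads were divided between them is uncertain. Of 25 tested purine and nucleotide genes these 2 were higher and Impdh1 was lower, and the median of 0.10 lay near that of all genes. Impdh2, the main isozyme of that step in dividing cells, was 60.3, 61.2 and 73.9 against 69.1, 71.5 and 74.5 (adjusted p = 0.976).

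Of 10 tested cathepsins and their inhibitors 2 were called higher in KO, as were 0.387% of all genes. In this list 7 lay above 0 and 3 below. Its median was 0.15, or 0.06 after median-of-ratios scaling, beside 0.09 and -0.002 for all genes. Ctla2a, a cathepsin inhibitor (chr13:60934155-60936625), was 9.5, 8.1 and 11.1 in wild type and 33.5, 35.5 and 36.5 in KO (9.57 ± 1.5 and 35.2 ± 1.53, SD, n = 3). Both groups were tight and far apart (log2 difference 1.78 ± 0.39, adjusted p = 0.00274), although with a pseudocount of 0.1 the call was lost (0.311; 1.07e-08 to 0.311 over its alternatives). Ctse, cathepsin E, was 3.2, 3.3 and 5.4 against 11.5, 15.2 and 13.7 (log2 difference 1.56, adjusted p = 0.000753). Ctsd, the main lysosomal aspartic protease, was 11.4, 30.3 and 36.6 against 32.1, 23 and 23.6, which overlap (adjusted p = 0.989).

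The remaining genes higher in KO had varied roles. Cnn3, the actin-binding calponin 3, was 24.1, 20.4 and 20.3 in wild type and 46.0, 36.7 and 53.2 in KO (log2 difference 1.02, adjusted p = 0.00307). Ptp4a3, a protein phosphatase of the PRL family, was 19.7, 32.9 and 33.2 against 52.1, 47.5 and 79.1 (log2 difference 1.03, adjusted p = 0.00245). Tspan14, a tetraspanin, was 15.9, 11.2 and 12.9 against 30.9, 20.1 and 37.3 (log2 difference 1.06, adjusted p = 0.041). In all 3 the KO values lay above wild type. Sdc1, the proteoglycan syndecan-1, was 7.6, 8.5 and 1.4 against 17.0, 17.6 and 20.5 (log2 difference 1.73, adjusted p = 0.00137). St3gal6, a sialyltransferase, was 3.8, 8.5 and 5.4 against 18.8, 18.6 and 20.5 (log2 difference 1.61, adjusted p = 0.000416). Neither overlapped between genotypes. Mt1, metallothionein 1, was 4.4, 2.6 and 4.7 against 21.8, 3.9 and 22.8 (log2 difference 1.53, adjusted p = 0.0199), and there KO replicate 2 lay within the wild-type range.
Without KO replicate 3, 11 genes were called higher in place of 17. The Cnn3 call was lost without that library (0.0516; 0.000809 to 0.13 over its alternatives), and the Ptp4a3 call without it or wild-type replicate 1 (0.115 and 0.155; 2.35e-05 to 0.155 over its alternatives). The Tspan14 call was lost without any PIR+ library other than KO replicate 2 (0.0523 to 0.374; 0.0061 to 0.374 over its alternatives), and the Sdc1 call without wild-type replicate 3 (0.19; 2.31e-05 to 0.216 over its alternatives). The Mt1 call was lost without wild-type replicate 2 or KO replicate 1 or 3 (0.147 to 0.545; 3.22e-05 to 0.545 over its alternatives). Without KO replicate 2, 13 genes were called lower in place of 21.

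**Figure D3:**
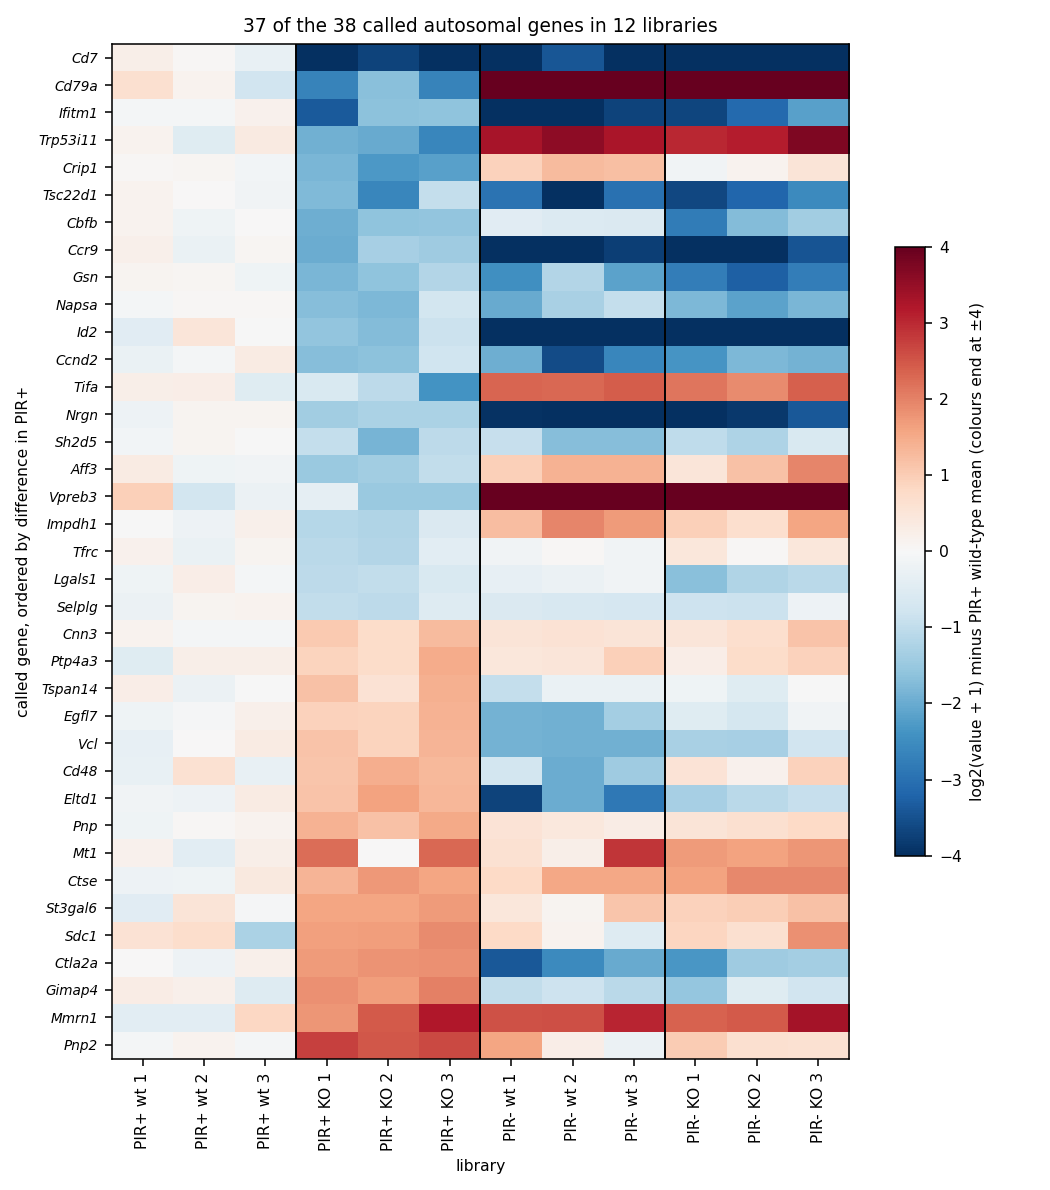
Rows are 37 of the 38 called genes, ordered by difference, columns the 12 libraries; colour is log2(value + 1) minus the mean of the 3 PIR+ wild-type libraries. Mt1 in PIR+ KO replicate 2 sits near wild type, and Cd79a, Vpreb3 and Trp53i11 are far higher in every PIR- library.

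Exons of 13 called genes overlap those of another annotated gene, and whether counting used strand is not stated, so reads of the partners cannot be told apart there. Of the partners, 4 had a value above 0. Agpat2, opposite Egfl7, was 5.7 to 10.2 in wild type and 4.4 to 5.3 in KO. Ap3m1, opposite Vcl, was 13.8 to 21 in wild type, a range that held all 3 KO values. Neither was high where its neighbour was high. Kif17, on the strand of Sh2d5, was 2.0 to 6.8 and 1.2 to 2.3, which overlap. Dcbld2, opposite St3gal6, was 0.0 to 0.8 in all 6.

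By limma, 13 of 41 gene lists had a called member, and lists without one included several whose members lay mostly on one side. In mitosis 39 of 44 tested genes lay above 0 (median 0.29, or 0.20 after median-of-ratios scaling, beside 0.09 and -0.002 for all genes). None was called, and 9 had an unadjusted p under 0.05 with KO higher and 1 with KO lower. Of all genes, 4.71% and 2.03% did so in those directions. In DNA replication the median was 0.12, near that of all genes, with 0 of 43 called and 1 under that unadjusted p. In cholesterol and fatty acid synthesis 12 of 15 lay below 0 (median -0.31; -0.40 after scaling), 0 were called and 1 had an unadjusted p under 0.05. That gene was Cyp51, a sterol demethylase, at 11.4, 11.8 and 13.6 in wild type and 3.6, 5.9 and 7.6 in KO (adjusted p = 0.363). Cytosolic ribosomal protein genes lay above 0 in 70 of 75 cases with a median of 0.17, which was 0.07 after scaling, with 0 called and 3 under the unadjusted p. Of 19 tested cytokine receptor and JAK-STAT genes 0 were called and 1 had an unadjusted p under 0.05 (median 0.10).

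**Figure D4:**
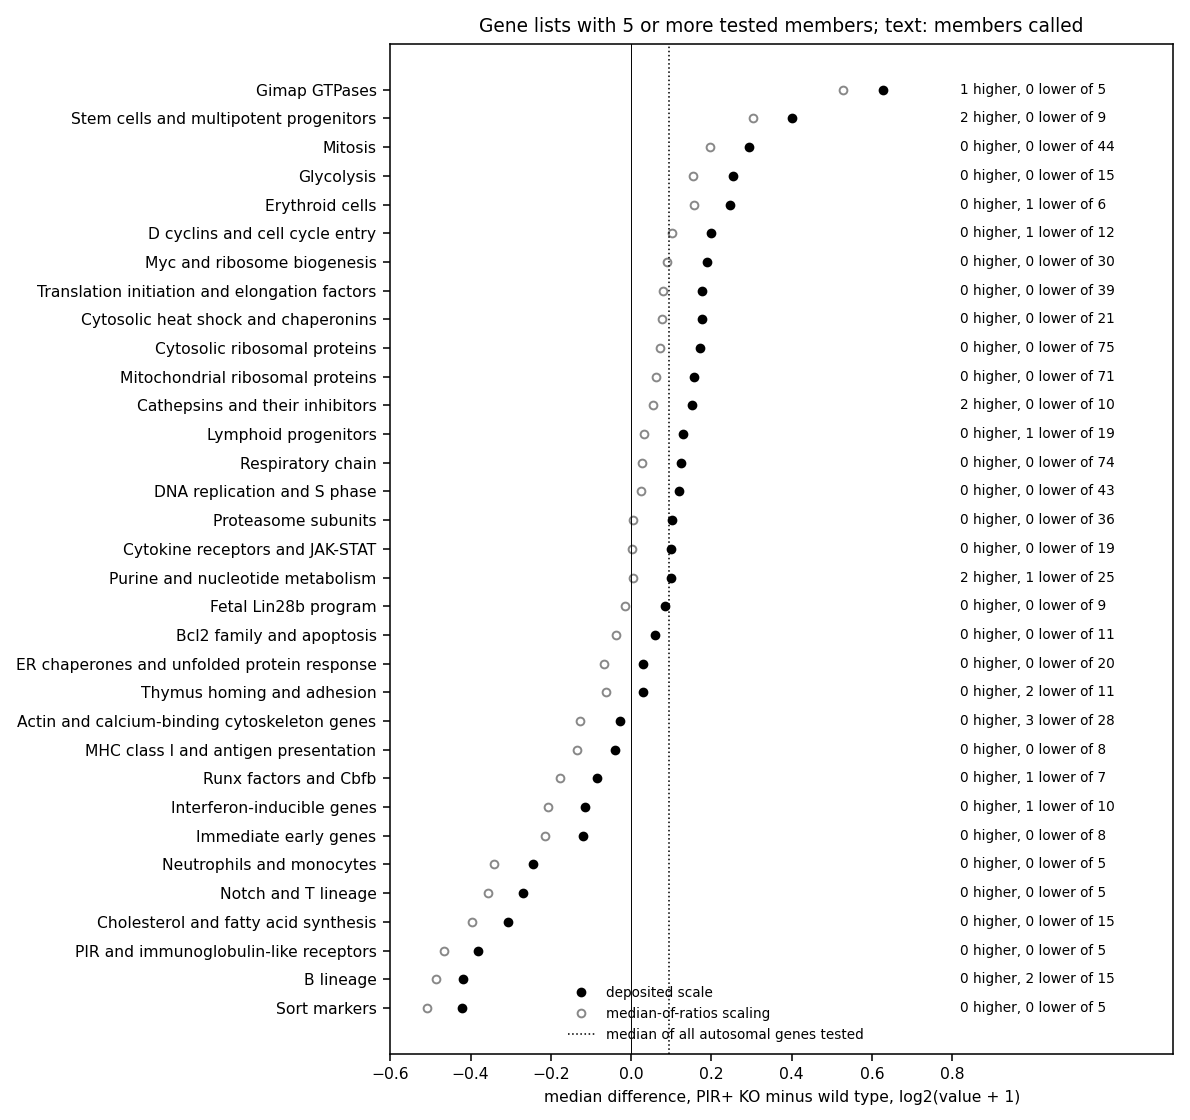
Median KO minus wild-type difference in PIR+ cells (x axis, log2 scale) of each list with 5 or more tested members, as deposited (filled) and after median-of-ratios scaling (open); the text gives members called of those tested. The Gimap list is at 0.63 and the B-lineage list at -0.42, beside 0.09 for all genes (dotted).

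Other cell types were represented unevenly. The erythroid list summed to 75.1 to 962.7 in wild type and 84.1 to 1897.2 in KO, following globin RNA, and Tfrc was its called member among 6 tested. The neutrophil and monocyte list summed to 205.9 to 265.6 and 209.2 to 317.8, with 0 of 5 tested called and 0 under an unadjusted p of 0.05. Macrophage markers summed to 2.0 to 4.3 and 3.9 to 8.4, mast cell and basophil markers to 4.1 to 5.7 and 6.6 to 18.3, and hepatoblast markers to 20.3 to 31.5 and 11.8 to 30.8; none of these lists had a tested member. Dendritic cell genes summed to 150.0 to 181.1 and 134.5 to 174.7, with 0 of 3 called and 1 under an unadjusted p of 0.05.

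The same contrast in PIR- cells, from other libraries in the same fit, called 58 of the 4395 genes (1.32%). Of the 38 genes called in PIR+ cells, 7 were called there too (18.4% of the PIR+ calls and 12.1% of the PIR- calls), among them Cbfb, Crip1 and Lgals1, lower in both, and Cd48, Egfl7 and Eltd1, higher in both. Counting sign alone, 28 of the 38 differed in the same direction, 16 of the 17 higher and 12 of the 21 lower. Cbfb in PIR- cells was 36.0, 34.1 and 33.4 in wild type and 6.4, 14.4 and 18.4 in KO (log2 difference -1.45, adjusted p = 3.79e-05). Egfl7 was 16.4, 16.3 and 24.1 against 45.0, 39.2 and 57.3 (log2 difference 1.28, adjusted p = 9.65e-06). Cd48 was 6.9, 2.3 and 3.9 against 18, 13.8 and 23.5 (log2 difference 1.92, adjusted p = 3.81e-06). In none of these did the PIR- genotypes overlap.

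The difference between the KO effects of the subsets was tested directly and called for 25 genes (0.569%), 21 with a lower KO effect in PIR+ and 4 with a higher one. Among them were 12 of the 38: Cd7, Cd79a, Ifitm1, Trp53i11, Crip1, Tsc22d1, Ccnd2, Nrgn, Tfrc, Gimap4, Mmrn1 and Pnp. Cd7, Ifitm1, Tsc22d1 and Nrgn were low in PIR- wild type (at most 0.8, 3.1, 4.8 and 3.7), which left little room for a fall there. For these genes the test cannot separate a different KO effect from a low starting level. Cd79a and Trp53i11 were below 10 in every PIR+ library (at most 8.9 and 6.8) and passed the filter only through PIR- libraries. Their differences between subsets thus set PIR+ values near the floor against high PIR- levels. Ifitm1 had the smallest adjusted p: it was low in PIR- cells, at 1.6, 2.3 and 3.1 in wild type and 3.2, 5.2 and 11 in KO, so that its effect differed by -3.25 ± 0.48 (adjusted p = 4.74e-06). Ccnd2 was 16.4, 4.6 and 10.1 in PIR- wild type and 12.2, 18.5 and 16.9 in PIR- KO (difference of effects -2.07, adjusted p = 0.000397). Gimap4 was 7.4, 8.5 and 7.0 and then 4.8, 11 and 8.8 (difference of effects 1.80, adjusted p = 0.00612). Pnp was 110.8, 101.5 and 93.1 and then 109.6, 119.3 and 133.0 (difference of effects 1.13, adjusted p = 0.00776). Crip1 was lower in KO in both subsets, at 175.5, 226.2 and 214.2 and then 84.2, 102.6 and 133.7 in PIR-, with the larger log2 difference in PIR+ (difference of effects -1.14, adjusted p = 0.0143). For Ccr9 and Id2, near 0 in PIR- cells, the effects were not shown to differ (adjusted p = 0.0769 and 0.421), nor for Cbfb (difference of effects -0.27 ± 0.36, adjusted p = 0.982). Without PIR+ wild-type replicate 2 the number called was 14 in place of 25.
Of the 12, the calls of Ifitm1, Ccnd2, Cd79a, Trp53i11 and Pnp held without each of the 12 libraries. Other alternatives ended 4 of these: the adjusted p over the alternatives was 1e-06 to 1.0 for Ccnd2, 6.49e-09 to 0.469 for Cd79a, 0.000541 to 0.41 for Trp53i11 and 6.01e-05 to 0.396 for Pnp, beside 3.69e-09 to 0.0484 for Ifitm1. With stage as a term 29 differences between subsets were called, 24 of the 25 among them, and Tfrc was lost. Within E12.5 alone 4 were called and within E14.5 alone 2. The Cd7 call was lost without PIR+ wild-type replicate 1 or 2 (adjusted p 0.0644 to 0.0944; 8.58e-06 to 0.908 over its alternatives), and the Gimap4 call without PIR+ wild-type replicate 3 (0.0513; 0.000447 to 1.0 over its alternatives). The Crip1 call was lost without PIR+ wild-type replicate 2, PIR+ KO replicate 2, PIR- wild-type replicate 1 or PIR- KO replicate 3 (0.0619 to 0.101; 0.00374 to 0.292 over its alternatives). The Tsc22d1 call was lost without PIR+ KO replicate 2, PIR- wild-type replicate 2 or PIR- KO replicate 3 (0.08 to 0.114; 0.000443 to 1.0 over its alternatives), and the Nrgn call without PIR+ wild-type replicate 2 or 3 or PIR- KO replicate 3 (0.0601 to 0.08; 0.00121 to 0.693 over its alternatives). The Mmrn1 call was lost without any of 7 libraries (PIR+ wild-type replicates 1 and 2, PIR+ KO replicates 2 and 3, PIR- wild-type replicate 3, PIR- KO replicates 1 and 2; 0.0568 to 0.149; 0.00408 to 0.251 over its alternatives). The Tfrc call was lost without any of 10 libraries, that is all but PIR+ KO replicate 3 and PIR- KO replicate 2 (0.0512 to 0.212; 0.00873 to 1.0 over its alternatives).

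**Figure D5:**
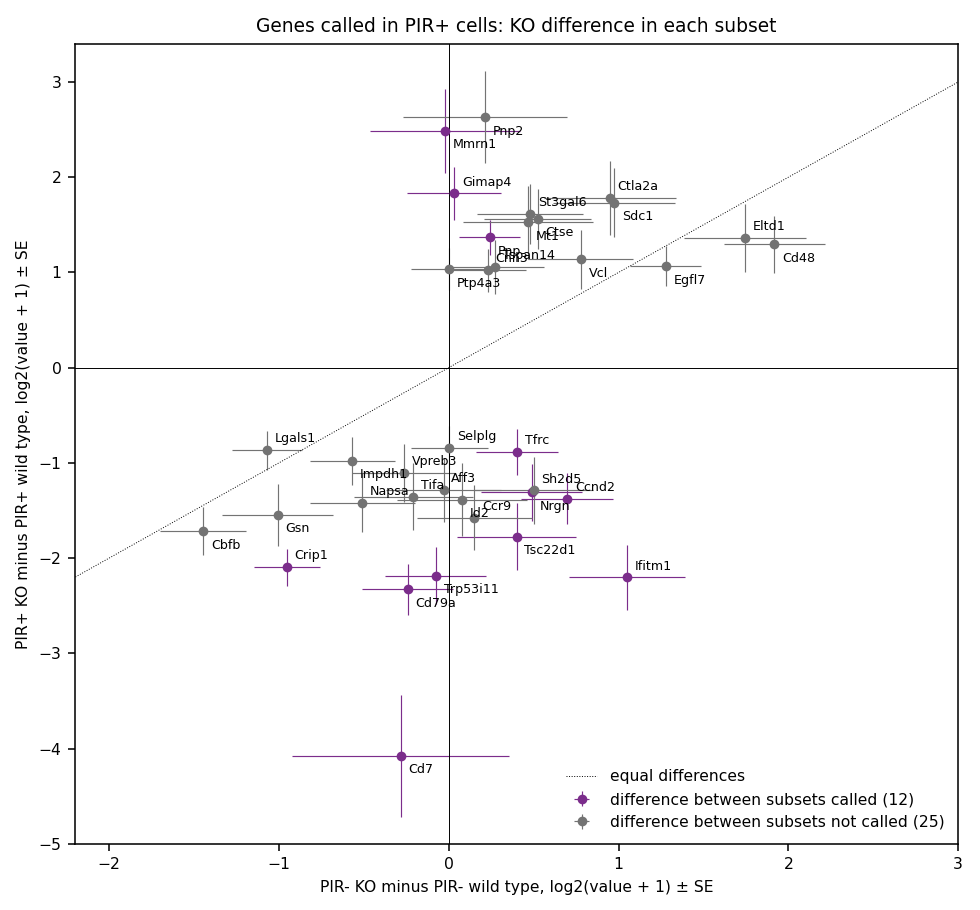
KO minus wild-type differences on the log2(value + 1) scale of 37 of the 38 called genes in PIR- cells (x axis) and PIR+ cells (y axis), with standard errors. The 12 genes whose effects differed between subsets are purple; Cbfb, Egfl7 and Cd48 lie near the line of equal differences.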

How the data were processed

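RNA of 12 libraries in 4 groups of 3 was measured by RNA sequencing from oligo-dT primers with molecular barcodes, with ERCC spike-in RNA in each tube, per the labels' protocols. The submitters' processing notes name TopHat2, DESeq2 and the mm10 build, without versions. The deposited table holds normalized signal values (molecule counts after the authors' normalization, with 1 decimal) and, for genes given one, the authors' p-value of the comparison by DESeq2, per the file headers; no source used here gives the adjustment or the strand of counting. Values under 15 lay on whole steps in 93.0% to 94.2% of cases, so whole counts were not recovered, no count model was run, and no counting interval is given.

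The values, as log2(value + 1), were fitted with limma 3.58.1 (R 4.3.3; 4 group means over 12 libraries, trended prior, Benjamini-Hochberg adjustment over the 4542 genes with a value of 10 or more in 3 or more libraries, sex chromosomes included). The 4395 autosomal genes are reported; 11 genes had no single location. Gene locations are from GENCODE M21 (GRCm38) or, for 210 genes, RefSeq names. A difference is on the log2(value + 1) scale and understates the change of low genes. The same steps were tested on simulated data with a common mean level per gene, apart from changes added in PIR+ KO. Those data held no difference between PIR+ and PIR- wild type, so they do not cover genes low in a subset. Replicate numbers did not pair PIR+ wild-type with PIR+ KO libraries: the deviations of same-numbered libraries correlated at r = -0.03, 0.09 and -0.06. Pairing of PIR+ with PIR- libraries within a genotype was not checked, and the fit treats all libraries as independent.

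Genes were named by this rule: called genes whose 2 groups did not overlap and whose larger group mean reached 20 (up to 15 in each direction), up to 4 called members of each list, sort genes, Cbfb, the Runx genes, Ccr9, and up to 5 in each direction with the largest difference between subsets. Aff3, Sh2d5, Tifa, Mmrn1, Mt1, Sdc1, St3gal6 and list members that were not called fall outside it and were chosen after their values were seen. Some genes are not reported by name here, though counts include them. The members and gene lists were chosen with earlier results of these data known. Alternatives covered scaling, pseudocount, filter, prior, samples, replicate block and each library left out; fits by the stage in the source name were added after the data were seen.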

Additional observations from a re-analysis of the deposited data

Results flagged for a closer look

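The KO effect differed between PIR+ and PIR- cells, by limma's test of the difference itself, for 25 autosomal genes. Among genes called lower in PIR+ KO, the PIR+ effect minus the PIR- effect on the log2 scale was -3.80 for Cd7, -3.25 for Ifitm1, -2.17 for Tsc22d1, -2.11 for Trp53i11, -2.09 for Cd79a, -2.07 for Ccnd2, -1.80 for Nrgn, -1.29 for Tfrc and -1.14 for Crip1. Among genes called higher it was 1.13 for Pnp, 1.80 for Gimap4 and 2.51 for Mmrn1. Cd7, Ifitm1, Tsc22d1 and Nrgn were low in PIR- wild type (at most 0.8, 3.1, 4.8 and 3.7), with little room for a fall. For these genes a different KO effect cannot be told from a low starting level. Cd79a and Trp53i11 were below 10 in every PIR+ library and passed the filter only through PIR- libraries.

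The other 13 were not called in PIR+ cells, and 11 of them were called higher in KO in PIR- cells. Among these were differences of -2.67 for Ncf1 (a subunit of the phagocyte oxidase), -1.95 for Mpo (myeloperoxidase), -1.89 for Csf1r (the receptor of M-CSF), -1.87 for Tyrobp, -1.72 for Flt3 (a cytokine receptor of lymphoid and myeloid progenitors), -1.34 for Cd34 and -1.05 for Plac8. Flt3 was 64.1, 71.0 and 86.1 in PIR+ wild type and 53.9, 63.7 and 66.2 in PIR+ KO, and 9.5, 3.1 and 6.2 and then 15.9, 20.2 and 16.9 in PIR- cells. Its genotypes overlapped in PIR+ and not in PIR-. Ifitm3 had -2.12, the receptor Gpr171 -1.69, the membrane protein Emb -1.40 and the chromatin protein Hmga2 -1.39. Every PIR- value of Ncf1, Csf1r and Ifitm3 was below 10 (at most 5.8, 7.5 and 8.8). They passed the filter only through PIR+ libraries. Their PIR- calls and differences between subsets thus rest on PIR- values under the filter level. Irf2bp2, at -1.36, was not called in either subset (adjusted p = 0.205 and 0.267). Beta-s, an adult beta-globin gene (Hbb-bs), had 3.59 and was called lower in PIR- KO; it ranged from 5.1 to 531.5 over the PIR+ libraries and from 14.6 to 820.2 over the PIR- libraries. The differences of Flt3, Mpo, Ncf1 and Tyrobp stayed called without each of the 12 libraries, but other alternatives ended them (adjusted p over the alternatives 2.67e-05 to 1.0 for Flt3, 5.46e-07 to 1.0 for Mpo, 6.93e-08 to 1.0 for Ncf1 and 2.26e-07 to 1.0 for Tyrobp). Of the other 9, each lost its call without 1 or more: Cd34 without PIR+ wild-type replicate 2 or PIR+ KO replicate 1 (adjusted p 0.0573 to 0.06; 0.00105 to 1.0 over its alternatives), Emb without PIR+ KO replicate 2 (0.0734; 0.00192 to 1.0), Gpr171 without PIR- wild-type replicate 1 (0.065; 0.000187 to 0.139) and Hmga2 without PIR- wild-type replicate 2 (0.0512; 0.000187 to 1.0). Ifitm3 lost it without PIR+ wild-type replicate 2 or 3 or PIR- KO replicate 3 (0.0587 to 0.131; 0.000958 to 1.0), and Plac8 without PIR+ wild-type replicate 2, PIR+ KO replicate 1 or 2, PIR- wild-type replicate 2 or PIR- KO replicate 3 (0.0578 to 0.128; 0.00141 to 1.0). Beta-s lost it without PIR+ wild-type replicate 1 or 2, PIR+ KO replicate 3 or PIR- KO replicate 2 or 3 (0.143 to 0.702; 1.31e-19 to 0.909). Csf1r lost it without any of 8 libraries, all but PIR+ KO replicate 3, PIR- wild-type replicates 1 and 2 and PIR- KO replicate 3 (0.0693 to 0.307; 0.00666 to 1.0). Irf2bp2 lost it without any of 8, all but PIR+ wild-type replicate 1, PIR+ KO replicate 2 and PIR- wild-type replicates 2 and 3 (0.0612 to 0.34; 0.00514 to 0.34).

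Outside the autosomes, 3 X-linked genes were higher in PIR+ KO: Erdr1 by 0.83 (127.6 to 196.6 in wild type and 223.8 to 355.1 in KO), Mid1ip1 by 1.46 (1.3 to 9.5 and 9.1 to 18.3) and Tspan6 by 1.91 (3.8 to 6.8 and 21.1 to 28.9). Mid1ip1 overlapped between genotypes. Xist, also X-linked, was not called (log2 difference 1.11, adjusted p = 0.0667).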

How the results depend on the processing

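Over 24 alternatives, 10 of the 38 calls were kept wherever the gene was tested (Cbfb, Cd79a, Crip1, Ifitm1, Trp53i11, Ctse, Gimap4, Mmrn1, Pnp and St3gal6), and 16 were kept without each of the 12 libraries. The total of 38 became 21 with a filter of 20 (which left 9 of the 38 untested), 19 with a constant prior and 24 without globin-rich libraries. The 17 higher became 6 with the filter of 20, 30 with the PIR+ libraries alone, 8 with a constant prior, 31 with the replicate block and 26 in libraries whose markers field matches the title. The 21 lower became 33 with no filter, 11 with a constant prior, 34 with the replicate block and median-of-ratios scaling, 11 without globin-rich libraries and 9 where the markers field matches. The 25 differences between subsets became 38 after scaling to library sums, 3 with no filter, 3 with a constant prior, 6 without globin-rich libraries and 10 where the markers field matches. With 1 library left out the total was 26 to 42, the higher 11 to 19, the lower 13 to 23, the differences between subsets 14 to 32 and the ratio of library sums 0.998 to 1.15. Of 3 fits by the stage in the source name, added after the data were seen and not among the 24, E12.5 alone gave 13 calls (6 higher, 7 lower; 4 differences between subsets), E14.5 alone 8 (3 higher, 5 lower; 2 differences) and stage as a term 34. With a pseudocount of 0.1 the 12 calls lost were Ccr9, Cd7, Ctla2a, Eltd1, Id2, Mt1, Nrgn, Selplg, Sh2d5, Tfrc, Tspan14 and Vcl. The replicate block gave 57 calls, and 49 with median-of-ratios scaling; the libraries share only a number, and of the 3 wild-type libraries, replicate 2 alone correlated best with the KO library of its own number.

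Changes of sign were seen in genes not called and in the ratio of library sums, which fell to 0.998 without PIR+ KO replicate 3. Kit was -0.0076 after scaling to library sums. Where the markers field matches the title the PIR+ difference was 0.071 for Il7r, 0.42 for Runx3, 0.025 for Emb, 0.22 for Gpr171, 0.13 for Mpo, 0.22 for Plac8 and 0.39 for Tyrobp, and the difference between subsets for Tyrobp was 0.27. Without globin-rich libraries it was 0.061 for Runx3 and 0.0033 for Tyrobp. With 1 library left out the PIR+ difference ran from -0.051 to 0.26 for Kit, -0.20 to 0.64 for Runx2, -0.34 to 0.059 for Runx3, -0.12 to 3.11 for Beta-s, -0.18 to 0.49 for Csf1r and -0.22 to 0.031 for Plac8. With the source name's stage as a term, Runx3 was 0.0017. Within E12.5 alone, the same PIR+ libraries as where the markers field matches, the same 7 genes lay above 0 with the values given there. Within E14.5 alone the PIR+ difference was -0.37 for Kit, -0.042 for Runx1, -0.69 for Runx2, -2.99 for Beta-s, -0.34 for Csf1r and -0.090 for Hmga2, and the difference between subsets for Beta-s was -0.82. The cause of these shifts was not tested. Of genes near the filter, 296 members had exactly 3 of 12 values of 10 or more, 4 of them called, and 377 autosomal genes with exactly 2 were not tested.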

Other observations

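With no filter on low values, limma called 50 of 13610 autosomal genes in PIR+ cells (0.367%), of which 19 were also called with the filter and 31 lay below it. Of these 31, 23 were lower in KO and 8 higher. Those described here were chosen after their values were seen, their call depends on the filter, and the depth behind such low values is not known as counts. Nfil3, a transcription factor of NK and innate lymphoid cells, was 8.9, 18.4 and 12.9 in wild type and 3.0, 1.0 and 0.8 in KO (adjusted p = 0.0148). Lck, the kinase of the T-cell receptor, was 7.0, 11.8 and 8.1 against 1.8, 1.0 and 1.5 (adjusted p = 0.0477). In both the KO values lay below wild type. Nkg7, a granule gene of NK cells, was 1.3, 7.9 and 2.7 against 0.0, 0.5 and 0.0 (adjusted p = 0.0178). The interleukin 1 receptor Il1r1 was 5.7, 2.6 and 4.1 against 0.0, 0.5 and 0.0 (adjusted p = 0.0075), and the decoy receptor Il1r2 was 3.2, 8.5 and 7.5 against 0.6, 0.0 and 0.8 (adjusted p = 0.00827). Btla, an inhibitory receptor of lymphocytes, was 0.6, 2.6 and 2.0 and is listed at 0 in the 3 KO libraries (adjusted p = 0.0162).

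Also lower in KO were Cttn, cortactin, at 5.1, 6.6 and 7.5 in wild type and 0.6, 1.0 and 0.0 in KO (adjusted p = 0.0114), and Ahnak, a large scaffold protein, at 4.4, 5.9 and 5.4 against 0.0, 0.5 and 0.8 (adjusted p = 0.0132). Pdgfrb, a receptor of platelet-derived growth factor used here as a stromal marker, was 6.3, 5.3 and 6.8 and is listed at 0 in every KO and PIR- library (adjusted p = 1.40e-05). Higher in KO were Sqrdl, the mitochondrial sulfide quinone reductase, at 0.6, 1.3 and 0.0 against 4.8, 5.9 and 8.4 (adjusted p = 0.0132), and the protocadherin Pcdh7 at 0.6, 0.0 and 0.0 against 6.1, 1.0 and 6.1 (adjusted p = 0.0178). No library of either group reached the other group's range in these genes.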
